A study of Mus musculus with 32 samples.

Results

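The genes of the cytosolic ribosomal proteins were followed through stimulated and resting mouse regulatory T cells (Tregs), the CD4 T cells that carry Foxp3 and restrain other immune cells. Members were taken by symbol alone, as Rpl, Rps or Rplp followed by a number and at most an a, x or l ending. No measured value enters this rule, but it was set with earlier results of these data known. This took 86 of the 54087 genes listed, among them 43 genes of the large ribosomal subunit, 30 of the small subunit and the 3 genes of the P-stalk, the arm of the large subunit that engages the elongation factors. The other 10 are paralogues or pseudogenes that the pattern also takes in, and 82 of the 86 are annotated as protein coding. The pattern leaves out some other ribosomal protein genes, such as Rpsa, Fau and Rpl36al.

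In mammals most ribosomal proteins are present as a single copy in each ribosome, so their mRNAs are needed in similar molar amounts although their genes are scattered over the genome. Most of these mRNAs begin with a terminal oligopyrimidine (TOP) tract, a C followed by a run of C and U, through which the kinase mTORC1 and the RNA-binding protein LARP1 govern their translation and stability. T cells that leave quiescence enlarge and make many more ribosomes, and translation of stored TOP mRNAs is a known part of that switch.

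The study set 4 agonists, each of another receptor of the TNF receptor superfamily, against plain activation in Tregs, with 32 bulk RNA-seq libraries in 11 groups. Agonist cultures received the TNFR2 agonist STAR2 (TNC-sc(mu)TNF80) at 12 ng/ml, the 4-1BB antibody 3H3 at 10 µg/ml, the DR3 ligand TL1A at 12 ng/ml or OX40L at 100 ng/ml, each for 18 h or 36 h. Control cultures of both times had no agonist, and resting Tregs had no culture time. All cells were GFP-positive Tregs of C57BL/6 mice aged 2.5 months with the Foxp3-IRES-GFP knock-in allele, which marks Foxp3-expressing cells. Agonist and control cultures shared plate-bound antibodies to CD3 and CD28 and mouse IL-2 at 10 ng/ml, so each agonist was tested on top of full stimulation, and no group was cultured without it. Each group had 3 libraries, except the OX40 agonist at 18 h with 2. The labels do not tie libraries to separate animals or cultures, so p-values measure the spread between these libraries, which may be technical. Doses of the agonists were not matched.

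Libraries held 11880270 to 38083925 expected counts. Levels are CPM, expected counts scaled to a common library size by TMM, unless TPM is named, and they are shares of the RNA counted, so fewer cells of a type and less RNA per cell cannot be told apart. The Treg markers Foxp3, Il2ra, Ctla4, Ikzf2, Cd4 and Cd3e were present in every group, with Foxp3 at 369 ± 2.06 CPM in controls at 36 h and 582 ± 2.11 CPM in controls at 18 h, against 520 ± 16.1 CPM in resting cells. Of these 6, 3 were called higher and 2 lower in controls at 18 h than at rest, and 2 higher and 4 lower at 36 h. Between the controls 4 were lower at 36 h. With the 4-1BB agonist at 18 h Ctla4 (-0.54) and Cd3e (-0.35) were called lower and Foxp3 (0.14) higher on the log2 scale. All genes were called at 80.9%, 84.5%, 52.2% and 25.8% in these 4 comparisons. With the TNFR2, DR3 and OX40 agonists at 18 h 3, 2 and 3 Treg markers were called, against 31.1%, 19.6% and 19% of all genes. At 36 h 3, 2, 1 and 2 were called with the TNFR2, 4-1BB, DR3 and OX40 agonists, against 24.8%, 22.5%, 13.4% and 13.3%. Summed markers of other cells were low but higher at rest. The 4 myeloid markers summed to 1.52 to 3.13 CPM in controls at 18 h and 2.97 to 3.45 CPM at 36 h, against 10.2 to 12.0 CPM at rest, and the 3 B cell markers to 0.380 to 0.895 and 0.359 to 0.464 CPM, against 2.62 to 3.19 CPM at rest. The 4 CD8 T and NK markers summed to 6.78 to 6.995 and 6.74 to 7.75 CPM, against 14.0 to 16.1 CPM at rest, with Ncr1 at 0 in all 3 groups and Klrb1c at 0 in both control groups. Itgam of the myeloid list was at 0 in controls at 18 h. The 3 erythroid markers summed to 0.280 to 0.706 and 0.0411 to 0.139 CPM, against 1.35 to 3.45 CPM at rest. These lists moved with the comparisons against resting cells, and some of their genes also with time and agonist, as given there. Their part in these results was not tested. Rows of the ribosomal RNA locus together took 8114 to 26036 CPM in controls at 18 h and 1407 to 11862 CPM in the agonist libraries of that time. They took 742 to 3247 CPM in controls at 36 h and 1206 to 15006 CPM in the agonist libraries of 36 h, against 1330 to 3370 CPM at rest. At 36 h only agonist libraries lay above 10000 CPM, the first TNFR2, the third DR3 and the second OX40 library. These rows move with the comparisons at 18 h and with some at 36 h. Those at 18 h are given with and without the 6 libraries above 10000 CPM.

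Start-site sequences of members the results turn on were read for runs of C and T, the letters of a TOP tract. RefSeq promoters on GRCm38.p6 were held for 62 members, 56 of them outside the group of paralogues and pseudogenes. Runs of at least 8 C or T were sought on the coding strand between 20 bases before and 50 bases after the annotated start. A gene counts as a match if any of its promoters holds one. Such a run was found in 45 of these 56 (80.4%), against 28.5% of the 27025 genes with a promoter. In the following windows, from 10 bases before to 20 bases into the start on the coding strand, capitals mark each run of 5 or more C or T.
Rps27: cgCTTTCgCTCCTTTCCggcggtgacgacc
Rps27l: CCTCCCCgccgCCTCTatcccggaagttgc
Rpl7l1: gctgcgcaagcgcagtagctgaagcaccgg
Rpl22l1: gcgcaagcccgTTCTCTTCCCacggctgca
Rps2: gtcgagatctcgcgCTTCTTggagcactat
Rps6: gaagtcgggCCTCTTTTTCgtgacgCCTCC
Rplp2: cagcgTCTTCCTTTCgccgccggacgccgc
Rps10: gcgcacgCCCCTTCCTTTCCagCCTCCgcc
Rps26: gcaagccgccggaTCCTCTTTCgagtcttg

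These windows lie at chr3:90213629-90213658 (minus strand) for Rps27, chr9:66946076-66946105 (plus, the first of its 2 entries) for Rps27l, chr17:46782637-46782666 (minus) for Rpl7l1 and chr3:28805498-28805527 (plus) for Rpl22l1. The others lie at chr17:24720053-24720082 (plus) for Rps2, chr4:86857348-86857377 (minus) for Rps6, chr7:141447641-141447670 (plus) for Rplp2, chr17:27635225-27635254 (minus) for Rps10 and chr10:128626487-128626516 (minus) for Rps26. Within the printed windows the longest run was 13 letters in Rps10, 10 in Rps6, Rplp2 and Rpl22l1, and 9 in Rps26 and Rps27. Rps27l, the paralogue of Rps27, had 7 letters there, Rps2 had 6, and Rpl7l1 had none. In the wider window used for the count above, Rps2 and Rps27l (over its 2 entries) did hold a run of at least 8, and Rpl7l1 did not. Other motifs were searched on both strands of the same promoters from 250 bases before to 50 bases after the start. CCGGAAG, the core bound by ETS factors, was present in 23 of the 56 (41.1%), against 9.93% of all genes with a promoter. CTCTTTCC was present in 10 of them (17.9%, against 3.57%), AAGATGG, the core of YY1 sites, in 9 (16.1%, against 7.28%), and CACGTG, the E-box bound by MYC and USF, in 6 (10.7%, against 8.09%). A match describes the letters only.

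Ribosomal protein mRNA was abundant before stimulation and stayed so. The members took 6.04 ± 0.08% of expected counts in controls at 36 h and 6.39 ± 0.17% in controls at 18 h, against 6.37 ± 0.17% in resting cells (SD, n = 3 each). In TPM, which divides by transcript length and so gives these short mRNAs more weight, they took 19.3 ± 0.19% at 36 h and 20.5 ± 0.32% at 18 h, against 22.3 ± 0.40% at rest, and the 3 groups did not overlap on that scale. The 77 mitochondrial ribosomal protein genes took 0.375 ± 0.008% of expected counts at 36 h and 0.367 ± 0.005% at 18 h, against 0.186 ± 0.004% in resting cells. At 18 h 76 of these 77 were higher than at rest, against 40.9% of all genes, with a median of 2.16-fold, whereas the median member stood at 1.05-fold (on log2(TPM + 1) values at -0.06, below 0).

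**Figure D1:**
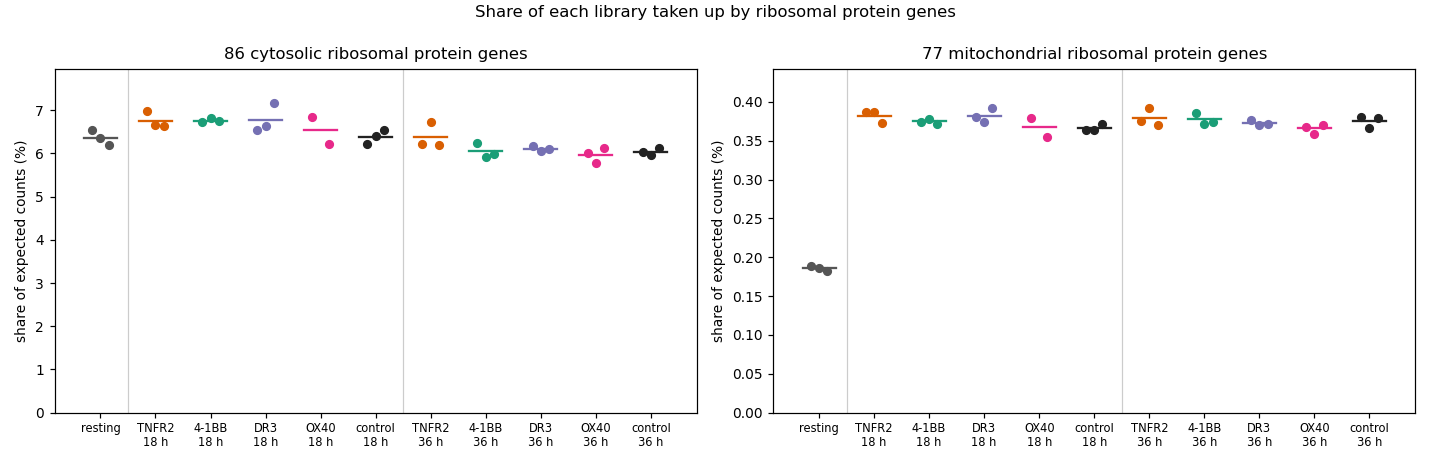
Share of each library's expected counts (%, vertical axes from 0) taken by the 86 cytosolic (left) and 77 mitochondrial (right) ribosomal protein genes, by group; points are libraries and bars group means. Cytosolic shares lie between 5.78% and 7.17% in all 32 libraries, while mitochondrial shares are at least 0.355% in every cultured library, against 0.182% to 0.189% at rest.

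The members differed from each other in level. In TPM, medians over the 32 libraries of the 76 core members, those outside the paralogues and pseudogenes, ran from 869 for Rpl39 and 1010 for Rpl27 up to 6123 for Rpl13a, 6092 for the stalk gene Rplp1 and 4832 for Rps15. Rpl13a and Rplp1, the top of that order, overlapped widely (5003 to 8608 and 5134 to 7065 TPM). Among paralogues, Rps27l (534 TPM), Rpl22l1 (442 TPM) and Rpl7l1 (155 TPM) were well expressed. Rps3a2, Rps4l, Rps3a3 and Rpl39l had medians of 2.28 to 7.66 TPM. Rpl10l, the testis partner of Rpl10, and the pseudogene Rps12l1 had no count in any library, and Rpl3l, the muscle partner of Rpl3, had 1 count in 1 library. These last 3 could not be tested, so tests cover 83 members.

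The order itself differed between cultured and resting cells. Rps27, which encodes a zinc-binding protein of the small subunit, was at position 3 of all members in both control groups (4624 ± 175 TPM at 36 h and 5328 ± 22.2 TPM at 18 h), against position 1 and 12800 ± 703 TPM at rest. Rps2, a small-subunit protein at the mRNA entry side, stood at position 7 at 36 h and 6 at 18 h, with 4261 ± 216 and 4527 ± 95.4 TPM, against position 45 and 2346 ± 43.8 TPM at rest. Large-subunit genes with the stalk summed to 1.28 to 1.29 times the TPM of small-subunit genes in controls at 36 h and 1.26 times at 18 h, against 1.11 to 1.15 times at rest, without overlap.

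The controls at 18 h give the first comparison of cultured with resting Tregs. Stimulation, IL-2, culture and time since purification cannot be told apart here. Among the 83 members 58 (69.9%) passed the test, 35 higher and 23 lower, against 80.9% of all 14313 genes tested (40.9% higher and 40.1% lower). Their differences were small. The median size of the log2 fold change was 0.25, against 0.82 over all genes, and 4 members moved by 2-fold or more. In the large subunit 21 of 43 were higher and 9 lower, and in the small subunit 10 of 30 were higher and 13 lower.

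Rps27l, a paralogue of Rps27 known as a p53 target, had 87.8, 82.8 and 88.3 CPM in controls at 18 h, against 17.2, 15.6 and 13.5 CPM at rest. Every cultured library lay far above every resting one, with a log2 fold change of 2.48 ± 0.10 (SE; adjusted p 9.16e-18; ENSMUSG00000036781, mm10 chromosome 9, 66946086 to 66949516). Rps27 itself (ENSMUSG00000090733, chromosome 3, 90212522 to 90213651) had 487, 536 and 532 CPM at 18 h, against 1242, 1217 and 1052 CPM at rest. It fell by 1.18 ± 0.07 on the log2 scale (adjusted p 5.92e-13), the largest fall of any member. Rps27l thus stood at 0.155 to 0.180 of the CPM of Rps27 in controls at 18 h and at 0.253 to 0.283 at 36 h, against 0.0128 to 0.0138 at rest.

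Rpl7l1 (ENSMUSG00000063888, chromosome 17, 46773907 to 46782672), a relative of Rpl7 whose yeast counterpart Rlp7 acts in assembly of the large subunit, had 227, 232 and 235 CPM at 18 h, against 59.2, 58.5 and 58.6 CPM at rest. Replicates varied by far less than the difference, and the log2 fold change was 1.98 ± 0.04 (adjusted p 6.84e-41). Rps2 (ENSMUSG00000044533, chromosome 17, 24718116 to 24721929) had 2157, 2161 and 2153 CPM at 18 h, against 1013, 993 and 1018 CPM at rest, a log2 fold change of 1.10 ± 0.04 (adjusted p 1.77e-30). Rps27, Rps27l, Rpl7l1 and Rps2 are the 4 members that moved by 2-fold or more at 18 h.

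Other large-subunit genes that rose were Rpl14 (0.72 ± 0.04), Rpl7a (0.69 ± 0.04), Rpl41 (0.65 ± 0.08), which encodes the shortest ribosomal protein, and Rpl15 (0.60 ± 0.04), all as log2 fold changes. Rps12 of the small subunit rose to 938 ± 53.2 CPM, against 620 ± 17.01 CPM at rest. Rps15a had 612, 647 and 652 CPM at 18 h, against 925, 862 and 817 CPM at rest, and fell by 0.45 ± 0.04 on the log2 scale without overlap. Rpl17 fell by 0.40 ± 0.06 and Rps21 by 0.39 ± 0.08, and Rps16 and Rpl39 fell by 0.34 and 0.33. Rps6, the substrate of S6 kinase, had 608 ± 22.7 CPM at 18 h, against 590 ± 6.19 CPM at rest (log2 0.04 ± 0.04, adjusted p 0.283). Rpl5 and Rpl11, which with 5S rRNA bind the p53 regulator MDM2, had log2 fold changes of -0.02 ± 0.05 (adjusted p 0.81) and 0.25 ± 0.06 (adjusted p 0.000526). On log2(TPM + 1) values with limma, 29 members were higher and 35 lower, with a median of -0.06, while the median of all genes was -0.12 on that scale.

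At 36 h 66 of the 83 members (79.5%) differed from resting cells, 34 higher and 32 lower, against 84.5% of all genes (42.4% higher and 42.1% lower). Rps27l had 129, 119 and 121 CPM in controls at 36 h, against 13.5 to 17.2 CPM at rest, a log2 fold change of 2.99 ± 0.10 (adjusted p 4.87e-20). Rps27 had 455, 472 and 448 CPM at 36 h and fell by 1.35 ± 0.07 (adjusted p 3.53e-14). Rpl7l1 (2.07 ± 0.04), Rps2 (1.02 ± 0.04) and Rpl41 (0.79 ± 0.08) were the next highest log2 fold changes among members above 5 CPM. Changes of 2-fold or more were called for 5 members, 3 of them paralogues or pseudogenes. Rps15a fell to 516 ± 14.5 CPM, against 868 ± 54.2 CPM at rest, and Rps7, Rps21 and Rpl17 fell by 0.51 to 0.57 on the log2 scale. Rps6 fell by 0.12 ± 0.04 (adjusted p 0.00208). With limma on log2(TPM + 1) the split was 27 higher and 45 lower, with a median of -0.12 against -0.13 for all genes.

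**Figure D2:**
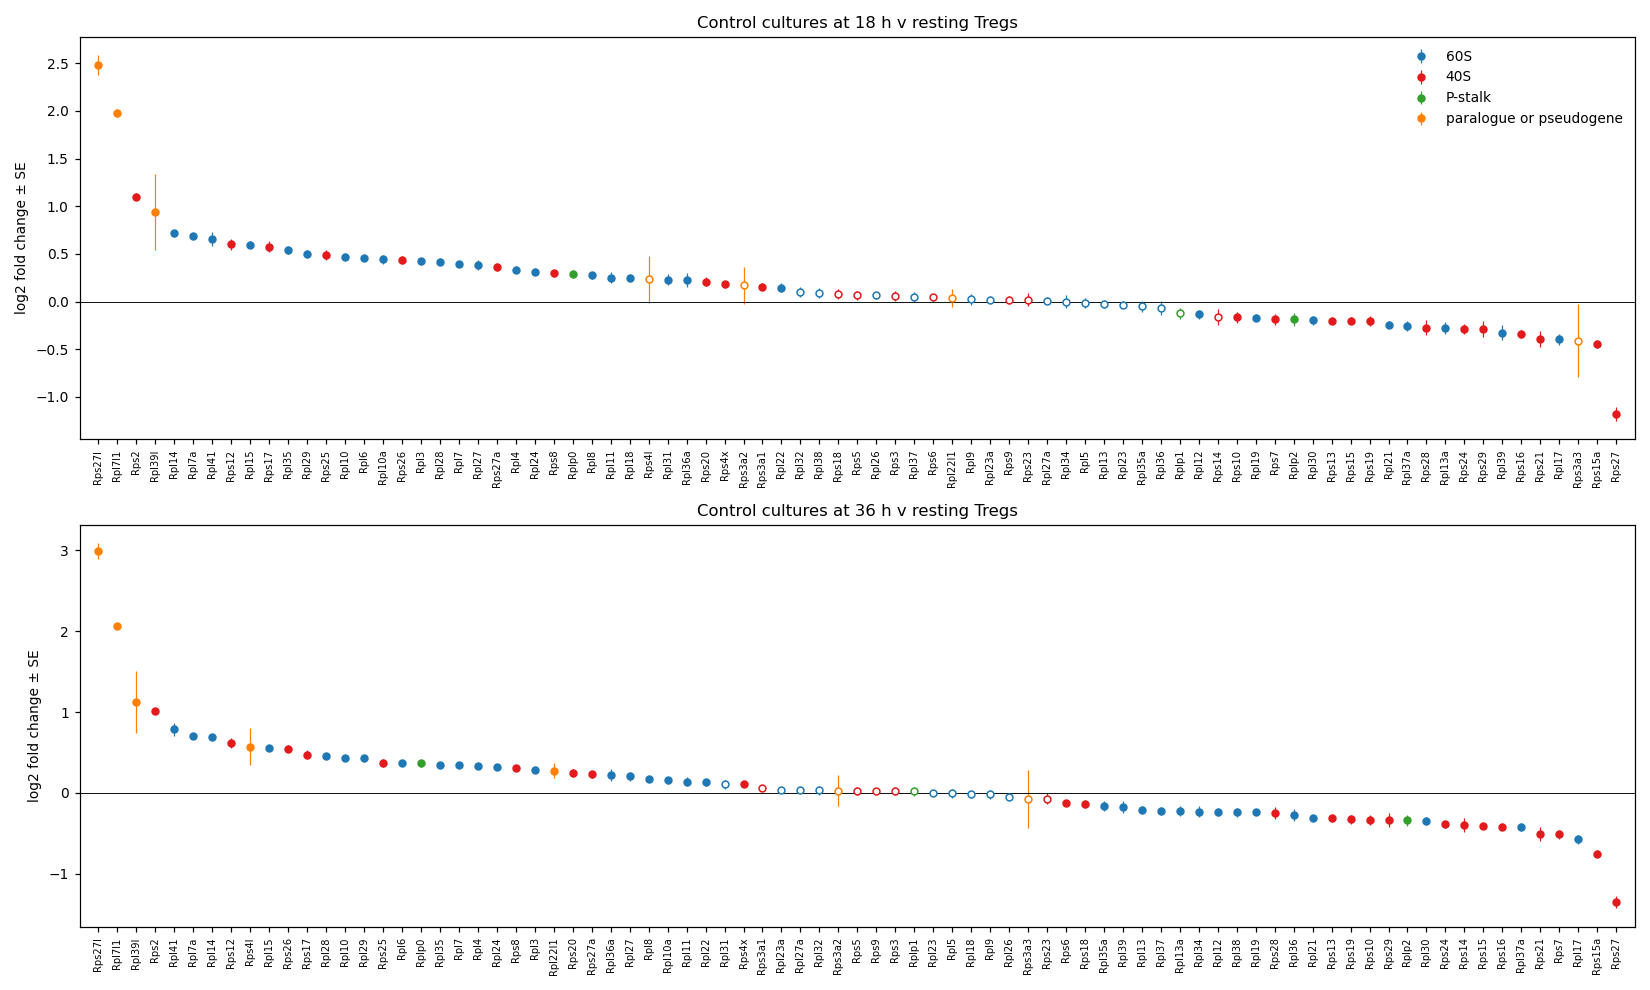
Log2 fold change ± SE (vertical axis) of 81 of the tested members in control cultures at 18 h (top) and 36 h (bottom) over resting Tregs, ordered by value; colour gives the role, and filled points have an adjusted p below 0.05. Among members above 5 CPM, Rps27l, Rpl7l1 and Rps2 lie above the gradual run of the rest and Rps27 lies below it at both times.

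Paralogues were set beside their namesakes. Rpl7, which rose by 0.39 ± 0.03 on the log2 scale at 18 h, had 1608, 1664 and 1623 CPM there, against 1280, 1220 and 1225 CPM at rest, while Rpl7l1 rose by 1.98. Rpl22, an RNA-binding protein needed for T cell development in the mouse, rose by 0.13 ± 0.05 at 36 h and 0.15 ± 0.05 at 18 h. Its paralogue Rpl22l1 had 95.9, 97.6 and 100 CPM in controls at 18 h, against 92.6, 106 and 87.7 CPM at rest, and these groups overlapped (log2 0.04 ± 0.10, adjusted p 0.737). At 36 h Rpl22l1 had 114, 117 and 117 CPM, above every resting library (log2 0.28 ± 0.09, adjusted p 0.00903). Rpl3 and Rpl10 rose by 0.42 ± 0.04 and 0.47 ± 0.04 at 18 h, while their tissue-specific partners Rpl3l and Rpl10l were at or near 0 throughout. Rpl39 fell by 0.33 ± 0.08 at 18 h, and its germ-cell partner Rpl39l was barely detected (0.711 ± 0.111 CPM at 18 h, against 0.360 ± 0.115 CPM at rest). In controls at 36 h Rpl39l had 2.73 ± 0.607 TPM, against 1.16 ± 0.515 TPM at rest. Without the libraries above 10000 CPM of ribosomal RNA the Rpl39 call was lost (adjusted p 0.0523). Rps4x and Rps3a1 rose by 0.18 ± 0.04 and 0.16 ± 0.04 at 18 h. The transcribed pseudogene Rps4l stayed between 1.23 and 3.35 CPM and the pseudogenes Rps3a2 and Rps3a3 between 0.395 and 3.85 CPM in all libraries, and near-identical copies of this kind can share reads with their parent genes.

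**Figure D3:**
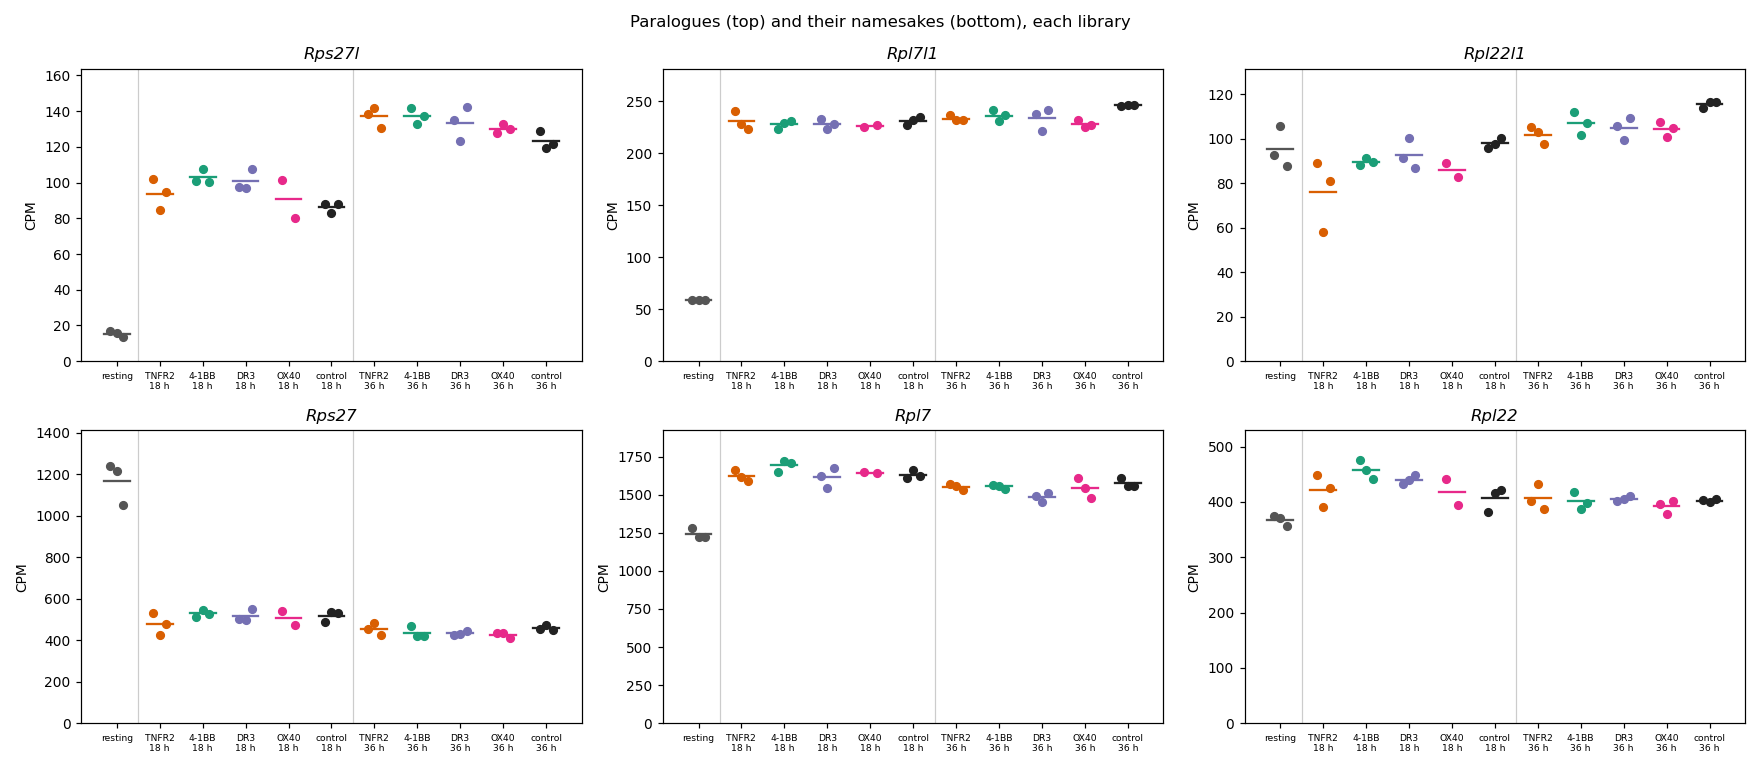
CPM (vertical axes from 0) of the paralogues Rps27l, Rpl7l1 and Rpl22l1 (top) and of Rps27, Rpl7 and Rpl22 (bottom) in each library by group; points are libraries and bars group means. Rps27l lies at 79.9 CPM or more in every cultured library, against 13.5 to 17.2 CPM at rest, while Rps27 is at most 552 CPM in culture, against at least 1052 CPM at rest.

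Between the control cultures far more members fell with time than rose. At 36 h 35 of 83 members (42.2%) differed from 18 h, 5 higher and 30 lower, against 52.2% of all genes, of which 25.6% were higher and 26.6% lower. The median member log2 fold change was -0.08, against -0.02 over all genes. Rps7 had 639, 615 and 623 CPM at 36 h, against 769, 790 and 799 CPM at 18 h, and fell by 0.33 ± 0.06 (adjusted p 1.99e-05). Rpl38, a large-subunit protein known from mouse patterning mutants, fell by 0.33 ± 0.06, Rps15a by 0.30 ± 0.04 and Rpl10a by 0.29 ± 0.05 on the log2 scale. Rpl37, Rpl18, Rpl34 and Rps14 followed with falls of 0.27, 0.26, 0.23 and 0.23. The 5 members that rose were Rps27l (0.51 ± 0.07, adjusted p 1.56e-06), Rpl22l1 (0.24 ± 0.09), Rplp1 (0.14 ± 0.06), Rps26 (0.11 ± 0.04) and Rpl7l1 (0.09 ± 0.03). The calls of Rpl22l1, Rplp1, Rps26, Rpl7l1 and Rps14 were each lost when a single library was left out, among other settings. The ribosomal RNA rows were lower at 36 h (742 to 3247 CPM) than at 18 h (8114 to 26036 CPM), and 22 members passed without the libraries above 10000 CPM. Without the second control library of 18 h 21 passed. Among markers of other cells, 2 of 2 erythroid and 1 of 3 B cell markers tested were lower at 36 h, and of 4 myeloid markers 1 was higher and 1 lower.

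Agonists were each compared with the control of the same time, and the 4 comparisons of a time share their 3 control libraries. At 18 h the called members were nearly all higher with agonist. With the TNFR2 agonist 33 of 83 passed, 32 of them higher, against 31.1% of all genes, of which 15.8% were higher and 15.3% lower. With the 4-1BB agonist 27 passed, all higher, against 25.8% of all genes (12.7% higher). With the DR3 agonist 28 passed, all higher, against 19.6% (9.66% higher), and with the OX40 agonist 6 passed, all higher, against 19% (9.32% higher). The changes were small. Median log2 fold changes of the 83 members were 0.10 with the TNFR2, 4-1BB and DR3 agonists and 0.05 with the OX40 agonist, against -0.01 to 0 over all genes. The TNFR2 median was 0.06 without the first TNFR2 library, the DR3 median 0.06 without the third DR3 library, and the OX40 median -0.004 without the first and 0.11 without the second OX40 library and 0.03 without the first control. The members' share of expected counts was 6.76 ± 0.19%, 6.76 ± 0.05%, 6.78 ± 0.34% and 6.53 ± 0.44% with these agonists, against 6.39 ± 0.17% in the control at 18 h.

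Among markers of other cells, 1 of 2 erythroid markers tested was called lower with each agonist at 18 h, where the list summed to 0 to 0.107 CPM, against 0.280 to 0.706 CPM in the control. The member counts rested on few libraries. Without the first control library of 18 h, 17, 7, 13 and 2 members passed with the TNFR2, 4-1BB, DR3 and OX40 agonists. Without the first TNFR2 library 19 passed, without the first 4-1BB library 16, without the third DR3 library 9 and without the second OX40 library 3, where the OX40 library left is taken to vary like the other groups. Without the first OX40 library 8 passed, 5 of them lower. The OX40 count at 18 h also moved upward, to 12 and 13 without the second and the third resting library, 10 without the third TNFR2 library, 12 without the second 4-1BB library and 16 without the third DR3 library of that time. Without the libraries above 10000 CPM of ribosomal RNA, which leaves 1 control of 18 h whose spread is taken from the other groups, 1 (lower), 1, 1 and 0 members passed, while the median log2 fold changes stayed above 0 (0.03, 0.07, 0.06 and 0.03). With limma on log2(TPM + 1), 20, 12, 15 and 3 members passed, and 17 of the 20 with the TNFR2 agonist were higher.

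**Figure D4:**
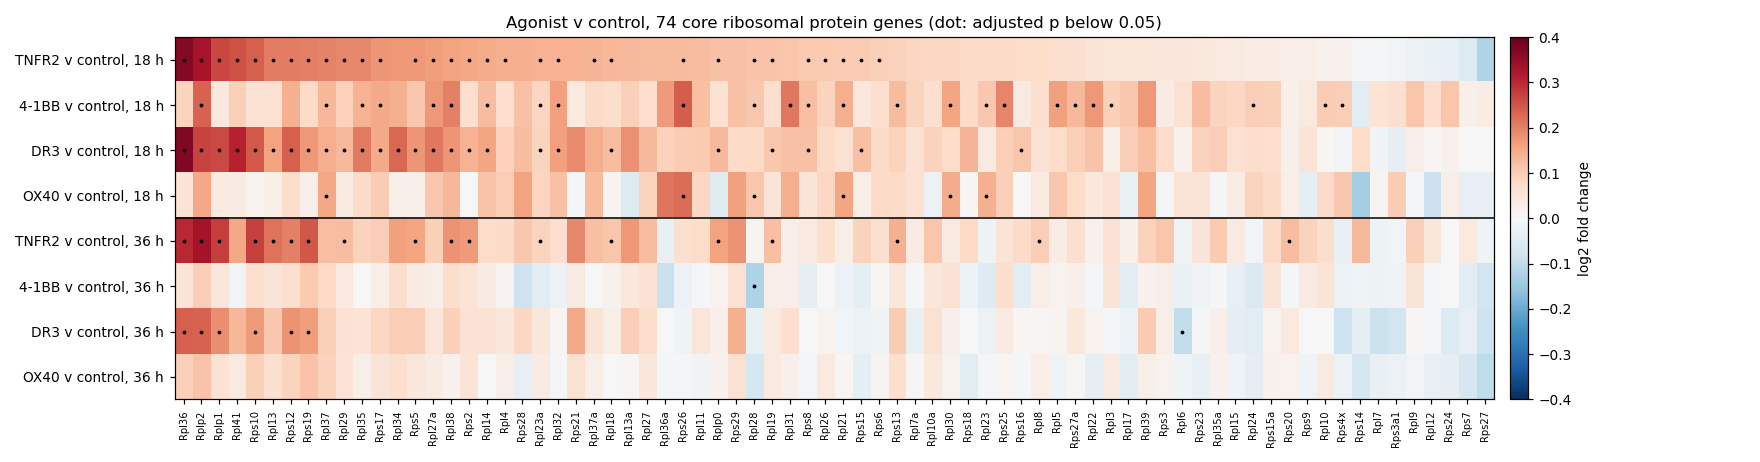
Log2 fold change of 74 core members (columns, ordered by the TNFR2 agonist at 18 h) in each agonist over the control of its time (rows, 18 h above 36 h); red is higher with agonist, blue lower, and a dot marks an adjusted p below 0.05. Dots are dense for the TNFR2, 4-1BB and DR3 agonists at 18 h, remain for the TNFR2 agonist at 36 h and are sparse elsewhere.

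Rplp1 and Rplp2 of the P-stalk were among the members with the highest called values with the TNFR2 and DR3 agonists at 18 h. Rplp2 (ENSMUSG00000025508, chromosome 7, 141447370 to 141451585) had 773, 693 and 693 CPM with the TNFR2 agonist and 632, 685 and 758 CPM with the DR3 agonist, against 549, 570 and 599 CPM in the control. All 6 agonist libraries lay above all 3 controls, with log2 fold changes of 0.33 ± 0.07 (adjusted p 0.000938) and 0.27 ± 0.07 (adjusted p 0.00831). Rplp1 (ENSMUSG00000007892, chromosome 9, 61913284 to 61914542) had 1303, 1246 and 1163 CPM with the TNFR2 agonist and 1159, 1205 and 1346 CPM with the DR3 agonist, against 1010, 1023 and 1052 CPM in the control. Its log2 fold changes were 0.27 ± 0.06 (adjusted p 0.00104) and 0.27 ± 0.06 (adjusted p 0.00192), again without overlap. Rplp0, the scaffold that holds both other stalk proteins, rose less, by 0.12 ± 0.04 with the TNFR2 agonist and 0.13 ± 0.04 with the DR3 agonist, and both calls were lost without the first control library of 18 h (adjusted p 0.0851 and 0.0787). With the 4-1BB agonist Rplp2 also passed (0.24 ± 0.07, adjusted p 0.0159), while Rplp1 had 1026, 1093 and 1061 CPM and overlapped the control (adjusted p 0.66). None of the stalk genes passed with the OX40 agonist, where Rplp2 had 640 and 636 CPM (log2 0.16 ± 0.08, adjusted p 0.193).

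Rpl36, a protein of the large subunit, had 454, 430 and 423 CPM with the TNFR2 agonist and 406, 427 and 478 CPM with the DR3 agonist, against 318, 348 and 348 CPM in the control at 18 h. It was the highest called member in both comparisons, at 0.37 ± 0.07 on the log2 scale each (adjusted p 0.00038 and 0.000635). Rpl41 rose by 0.26 ± 0.07 and 0.31 ± 0.07, and Rps10, a protein at the mRNA entry of the small subunit, by 0.24 ± 0.06 and 0.25 ± 0.06. Rps26, a protein at the mRNA exit side, was the core member with the highest called value with the 4-1BB and OX40 agonists. It had 844, 754 and 761 CPM with the 4-1BB agonist and 760 and 792 CPM with the OX40 agonist, against 641, 661 and 692 CPM in the control. Its log2 fold changes were 0.24 ± 0.04 (adjusted p 1.28e-05) and 0.22 ± 0.05 (adjusted p 0.000395). The OX40 agonist also raised Rpl21 (0.16 ± 0.04) and Rpl37 (0.16 ± 0.05). Without the libraries above 10000 CPM of ribosomal RNA, Rpl22l1 was the only member called with the TNFR2 agonist and Rps26 (adjusted p 0.0421) the only one with the 4-1BB agonist, so all other calls with these agonists were lost. With the DR3 agonist those of Rpl36, Rpl41, Rps27l and the 3 stalk genes were lost, and with the OX40 agonist all 6. Rplp2 with the DR3 agonist was also lost without the third DR3 library (adjusted p 0.069), and with the 4-1BB agonist without the first control or the first 4-1BB library (adjusted p 0.0835 and 0.0588). With the OX40 agonist Rpl21 was lost without the second OX40 library (adjusted p 0.0838), and Rpl37 without either OX40 library or the first or the third control (adjusted p 0.0514 to 0.257).

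Among the paralogues, Rpl22l1 (ENSMUSG00000039221, chromosome 3, 28805436 to 28807424) was the only member called lower with any agonist at this time. It had 88.9, 57.9 and 81.2 CPM with the TNFR2 agonist, against 95.9, 97.6 and 100 CPM in the control, and fell by 0.36 ± 0.10 on the log2 scale (adjusted p 0.00571). The second TNFR2 library was far below the other libraries, and without it the fall was by 0.20 on the log2 scale. The call held under every alternative run, with adjusted p up to 0.0423. With the 4-1BB, DR3 and OX40 agonists Rpl22l1 had log2 fold changes of -0.13, -0.07 and -0.19, none of which passed. Rps27l rose with the 4-1BB agonist (101, 108 and 100 CPM, against 87.8, 82.8 and 88.3 CPM, log2 0.26 ± 0.07, adjusted p 0.0114) and with the DR3 agonist (log2 0.22 ± 0.08, adjusted p 0.0418). The 4-1BB call was lost without the second control library of 18 h (adjusted p 0.0569), and the DR3 call without any 1 control or without the first or the third DR3 library (adjusted p 0.0585 to 0.15). Rpl7l1 passed with none of the 4 agonists, with log2 fold changes of -0.003 (TNFR2), -0.02 (4-1BB), -0.02 (DR3) and -0.03 (OX40).

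**Figure D5:**
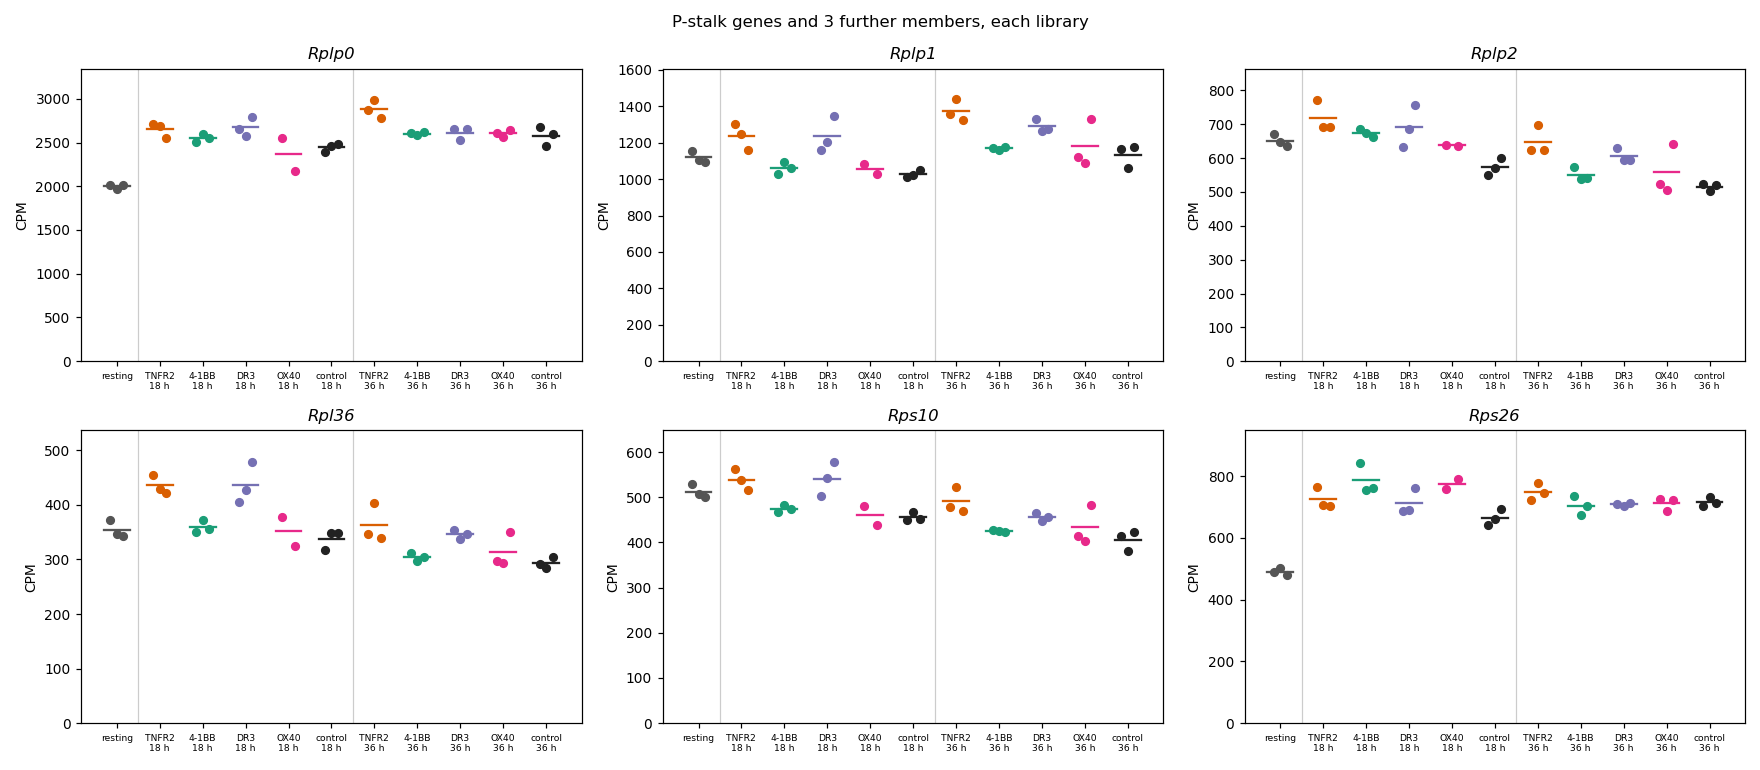
CPM (vertical axes from 0) of Rplp0, Rplp1, Rplp2, Rpl36, Rps10 and Rps26 in each library by group; points are libraries and bars group means. Rplp1, Rpl36 and Rps10 lie higher with the TNFR2 and DR3 agonists than with the 4-1BB agonist at 18 h, and Rps26 has its highest means there with the 4-1BB and OX40 agonists.

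At 36 h 19 of 83 members (22.9%) passed with the TNFR2 agonist, all higher, against 24.8% of all genes (13% higher), so the share called was near that of all genes. With the DR3 agonist 7 passed, 6 of them higher, against 13.4% (6.97% higher and 6.39% lower). With the 4-1BB agonist 1 passed, lower, against 22.5% (11.5% lower), and with the OX40 agonist 1, lower, against 13.3% (6.21% lower). The median log2 fold change was 0.08 with the TNFR2 agonist (0.05 without its second library), 0.02 with the DR3 agonist and 0.01 with the other two, and on log2(TPM + 1) values 0.03 with the TNFR2 agonist and -0.005 to -0.02 with the 3 others. Rplp1 had 1357, 1440 and 1327 CPM with the TNFR2 agonist, against 1167, 1063 and 1176 CPM in the control, and rose by 0.28 ± 0.06 (adjusted p 0.000994). Rplp2 had 625, 698 and 624 CPM with it, against 522, 502 and 520 CPM (log2 0.33 ± 0.07, adjusted p 0.00114). Neither gene's agonist libraries overlapped the control. Rplp0 rose by 0.16 ± 0.04, Rpl36 by 0.30 ± 0.07, Rps10 by 0.27 ± 0.06 and Rps19, whose human gene is mutated in Diamond-Blackfan anaemia, by 0.25 ± 0.05. Without the second TNFR2 library of 36 h 9 members passed, without the second control library 12, and with limma on log2(TPM + 1) 11. Alternatives other than leaving out single libraries include leaving out those high in ribosomal RNA. Over these alternatives 11 to 22 members passed with the TNFR2 agonist at 36 h and 1 to 3 with the 4-1BB agonist.

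With the DR3 agonist at 36 h the 6 higher members were Rpl36 (0.24 ± 0.07), Rplp2 (0.24 ± 0.07), Rplp1 (0.19 ± 0.06), Rps12, Rps10 and Rps19. All 7 calls had adjusted p between 0.0281 and 0.0478, and 0 to 2 members passed without the first or second control library or any 1 of the 3 DR3 libraries of 36 h. With ribosomal RNA as a covariate 0 passed. The lower member was Rpl6 (-0.10 ± 0.03), whose call was lost under 31 alternatives. Rpl28 was the member called lower with the 4-1BB agonist, at 634, 631 and 644 CPM, against 678, 717 and 685 CPM in the control (log2 -0.12 ± 0.04, adjusted p 0.00957). Rpl7l1 was the member called lower with the OX40 agonist, at 232, 225 and 227 CPM, against 246 CPM in each of the 3 controls (log2 -0.11 ± 0.03, adjusted p 0.0175). Without the second control library of 36 h the calls of Rpl28 (adjusted p 0.102) and Rpl7l1 (adjusted p 0.0586) were both lost, and the Rpl7l1 call also without the second or the third OX40 library (adjusted p 0.0616 and 0.0577). With the 4-1BB agonist at 36 h 1 of 4 myeloid markers was also called lower.

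Whether an agonist acted differently at the later time was tested as the difference between its 36 h and 18 h effect. For the 4-1BB agonist 3 members passed, all with a lower effect at 36 h, against 4.37% of all genes (2.03% lower). Rps26 had -0.27 ± 0.06 (adjusted p 0.00312), Rpl28 -0.23 ± 0.05 (adjusted p 0.00289) and Rpl21 -0.17 ± 0.05 (adjusted p 0.0347). For the OX40 agonist Rps26 alone passed (-0.23 ± 0.06, adjusted p 0.0295), against 3.48% of all genes (1.38% lower), and 0 passed without the first or second control of 18 h, the second OX40 library of 18 h, the second control of 36 h, or the second or the third OX40 library of 36 h. For the TNFR2 and DR3 agonists edgeR called 0 members, against 6.69% and 2.31% of all genes, with 2 and 10 below an unadjusted p of 0.05. DESeq2 called 0 and 0, and limma on log2(TPM + 1) called 0 and 1. Without the first 4-1BB library of 36 h 5 members passed. None of the 4-1BB and OX40 calls held without the libraries above 10000 CPM of ribosomal RNA.

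A joint test asked whether the 4 agonists differed among themselves, at doses that were not matched. At 18 h 10 members passed, against 14.3% of all genes, led by Rpl36 (adjusted p 0.00428), Rplp1 (0.00642) and Rps10 (0.00833). Rps10 had 563, 539 and 515 CPM with the TNFR2 agonist and 503, 542 and 579 CPM with the DR3 agonist, and 468, 483 and 474 CPM with the 4-1BB agonist and 482 and 439 CPM with the OX40 agonist. For Rps10 the 6 TNFR2 and DR3 libraries all lay above the 5 others. These 3 genes passed under every alternative run, with adjusted p up to 0.0454. At 36 h 6 members passed, against 9.06% of all genes, among them Rplp0 (adjusted p 0.0134), which had 2873, 2990 and 2779 CPM with the TNFR2 agonist and 2532 to 2652 CPM with the other agonists. The count at 36 h was 0 without the second TNFR2 library of 36 h, 13 without the third OX40 library of 36 h, 11 without either OX40 library of 18 h and 10 without the third DR3 library of 18 h. The count at 18 h was 4 without the second OX40 library of 18 h and 29 without the first, each time with 1 OX40 library that is taken to vary like the other groups, and 6 without the first or the third control, the third 4-1BB library or the second DR3 library of 36 h.

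The members that rose with the TNFR2 and DR3 agonists tended to be rich in G and C. GC and length of a gene are plain means over its annotated transcripts, not weighted by expression, and can be far from the mRNA measured. Rps15a, for instance, has a mean length of 1860 bases, against effective lengths of 307 to 409 in the libraries. Over the 76 core members these GC means ran from 44.2 to 60.8%, with a median of 51.9%. Spearman's rho between GC and the log2 fold change was 0.54 with both the TNFR2 and DR3 agonists at 18 h, and 0.56 and 0.38 at 36 h. It was -0.27 and -0.28 with the 4-1BB and OX40 agonists at 18 h, and 0.19 and 0.31 at 36 h. Taken library by library against the control mean, rho was positive in all 6 TNFR2 libraries (0.45 to 0.55) and all 6 DR3 libraries (0.27 to 0.55). It ran from -0.27 to 0.37 in the 4-1BB libraries, -0.3 to 0.37 in the OX40 libraries and -0.35 to 0.32 in the 6 controls. Over all 14308 genes with a GC value it was 0.27 and 0.20 with the TNFR2 and DR3 agonists at 18 h and 0.37 and 0.28 at 36 h. With the 4-1BB and OX40 agonists it was 0.07 and 0.03 at 18 h and 0.16 and 0.23 at 36 h. Between transcript length and the log2 fold change of the core members at 18 h, rho was -0.35 (TNFR2), -0.05 (4-1BB), -0.39 (DR3) and -0.21 (OX40). These are descriptions across genes that share libraries and controls. Rpl36 is the member richest in GC, at 60.8%, and Rplp1 holds 57.3% and Rps10 57.1%, while Rps26 holds 50.6% and Rpl21 48.3%. Single genes also departed from the trend. Rplp2, among the highest called members with the TNFR2 and DR3 agonists at 18 h, holds 52.6%, near the median. Rplp0, which rose less with them, holds 57.9%. With the GC trend of each library taken out, an alternative added after the data were seen, Rpl36 and Rplp0 with the TNFR2 agonist at 36 h no longer passed (adjusted p 0.13 and 0.403), whereas Rplp1 and Rplp2 did.

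Genes that act beside the ribosomal proteins were followed in controls over resting cells at 18 h, where 40.9% of all genes were called higher and 40.1% lower. All 8 chaperones of single ribosomal proteins were higher at 18 h, with a median log2 fold change of 1.53, including Grwd1, the partner of Rpl3, at 106 ± 3.98 CPM, against 18.1 ± 1.198 CPM at rest, and Heatr3, which carries Rpl5, at 177 ± 4.04 CPM, against 36.5 ± 1.86 CPM. Among 16 translation factors and other genes with TOP mRNAs at 18 h, 14 were higher and 2 lower (median log2 0.38). Npm1 and Eef1g rose by 2.08 ± 0.04 and 1.21 ± 0.03, while Tpt1, another TOP mRNA, fell by 1.00 ± 0.04. Of 11 genes that control TOP mRNAs 7 were higher and 4 lower. Larp1 rose by 1.64 ± 0.04, and the mTORC1 inhibitor gene Tsc1 fell by 0.58 ± 0.06. Among ribosomal protein genes that the symbol pattern leaves out, Rpl36al (0.66 ± 0.04) and Rpsa (0.24 ± 0.04) rose, and Fau (-0.67 ± 0.05) fell.

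With agonists at 18 h the values of these lists were small. Of the 77 mitochondrial ribosomal protein genes 16 were higher and 2 lower with the TNFR2 agonist, 9 higher and 1 lower with the 4-1BB agonist, 9 higher with the DR3 agonist, and 1 higher and 2 lower with the OX40 agonist, with medians of 0.02 to 0.07. Over all genes 15.8%, 12.7%, 9.66% and 9.32% were called higher with these agonists. The 16 TOP and translation factor genes had medians of 0.06 to 0.07 with the 4 agonists, with 6 of them higher and 1 lower with TNFR2, 5 higher with 4-1BB and 3 higher each with DR3 and OX40. At 36 h the medians of both lists lay between -0.04 and 0.02 with every agonist.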

How the data were processed

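Bulk RNA-seq of 32 libraries was used. Per the labels' protocols, RNA was purified with the NucleoSpin RNA XS kit and cDNA was made with SMART-Seq v4 Ultra Low Input chemistry, which does not mark strand, so overlapping antisense genes cannot be told apart. The authors deposited RSEM expected counts and TPM per gene for each library. STAR 2.5.3a, RSEM 1.2.28, Trimmomatic, FastQC and mm10 were used, per the submitters' processing notes. The deposited expected counts were rounded to whole numbers for the tests, and the deposited TPM were used for levels between genes.

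Genes were filtered with filterByExpr over the 11 groups, leaving 14313, scaled by TMM and tested with edgeR 4.0.16 (R 4.3.3) by a robust quasi-likelihood fit over all groups. Benjamini-Hochberg adjustment ran over all genes tested, and an adjusted p below 0.05 was called. Each SE is the absolute log2 fold change over the square root of F. The biological coefficient of variation was 4%. On data simulated for the TNFR2 agonist at 18 h over 14313 genes, 85 of 96 genes changed by 0.3 on the log2 scale and 104 of 104 changed by 1 were recovered, with 9 false calls. Changes were planted only in well expressed genes, and noise was independent between genes, so shifts that many genes of a library share were not simulated. Nor were changes as small as the member medians of 0.05 to 0.10 with agonists at 18 h. No replicate pair was as close as sampling noise (chi-square per degree of freedom 1.66 to 22.8). Annotation came from GENCODE M21 for mm10, which matched 53973 of 54087 genes and all 86 members.

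The members and lists were chosen with earlier results of these data known. Genes named were the 8 highest and 8 lowest called members of at least 5 CPM in comparisons without agonist, the 3 highest and 3 lowest with agonist, the 5 smallest p-values of the difference tests, the paralogue pairs, the stalk genes, Rps6, Rpl5 and Rpl11. Others named with agonists (among them Rps10, Rps19, Rps12 and Rpl41) were chosen after their values were seen. Some genes that the rule takes are not reported here, by name or in the figures, but stay in all counts. Alternatives were DESeq2 1.42.0, limma 3.58.1 on log2(TPM + 1), RLE scaling, TMM without the members, no filter, pseudogene rows added, ribosomal RNA as a covariate or its 6 high libraries left out, a replicate block, a GC offset added after seeing the data, and leaving out each library.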

Additional observations from a re-analysis of the deposited data

Results flagged for a closer look

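The effect of an agonist differed between 36 h and 18 h for a few members, by edgeR's test of that difference (log2, 36 h effect minus 18 h effect). With the 4-1BB agonist the values were -0.232 for Rpl28, -0.267 for Rps26 and -0.168 for Rpl21, and with the OX40 agonist -0.231 for Rps26. These were 3.61% of the members with the 4-1BB agonist, against 4.37% of all genes, and 1.2% with the OX40 agonist, against 3.48%. The Rpl21 value lost its call in 14 alternatives and the OX40 value of Rps26 in 8. All 4 calls depended on the libraries high in ribosomal RNA, as given above.

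The 4 agonists differed among themselves at 18 h for Rpl36 (adjusted p 0.00428), Rplp1 (0.00642), Rps10 (0.00833), Rplp0 (0.014) and Rpl13 (0.0179). Rplp0 and Rpl13 lost this call without the second OX40 library of 18 h (adjusted p 0.433 and 0.0955), which leaves 1 OX40 library that is taken to vary like the other groups. At 36 h they differed for Rplp0 (adjusted p 0.0134), Rplp1 (0.0229), Rps15 (0.0243) and Rpl13 (0.0295). Without the second TNFR2 library of 36 h the adjusted p-values of these 4 genes were 0.24, 0.114, 0.356 and 0.223.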

How the results depend on the processing

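The counts of called members in controls over resting cells stayed within 1.5 times under all alternatives (57 to 59 at 18 h and 62 to 67 at 36 h with each library left out in turn). Other counts, apart from the TNFR2 and DR3 differences between times, depended on the libraries kept, with ranges of 21 to 38 for the controls at 36 h over 18 h, 17 to 38, 7 to 29, 9 to 34 and 2 to 16 for the TNFR2, 4-1BB, DR3 and OX40 agonists at 18 h, and 9 to 25, 0 to 2, 0 to 8 and 0 to 2 at 36 h. The differences between times ranged over 0 to 0, 2 to 5, 0 to 0 and 0 to 3, and the joint tests over 4 to 29 at 18 h and 0 to 13 at 36 h. Without the libraries high in ribosomal RNA the counts were 22 for 36 h over 18 h, 1, 1, 1 and 0 for the agonists at 18 h, 3 and 0 for the DR3 and OX40 agonists at 36 h, 0 for the 4-1BB and OX40 differences, and 6 and 1 in the joint tests. With limma on log2(TPM + 1) they were 20, 12, 15 and 3 at 18 h, 11, 3 and 4 for the TNFR2, 4-1BB and DR3 agonists at 36 h, and 1 for the DR3 difference. DESeq2 gave 15 for the OX40 agonist at 18 h, 5 and 3 for the 4-1BB and OX40 differences and 10 in the joint test at 36 h, and RLE scaling gave 14 for the OX40 agonist at 18 h and 2 for its difference. With no filter the counts were 2 for the 4-1BB agonist at 36 h, 5 and 2 for the 4-1BB and OX40 differences, and 17 and 11 in the joint tests. With ribosomal RNA as a covariate they were 21 for 36 h over 18 h, 2 for the OX40 agonist at 18 h, 0 for the DR3 agonist at 36 h and 0 for the OX40 difference. With the GC offset they were 3 and 3 for the 4-1BB and OX40 agonists at 36 h, 6 and 2 for their differences and 5 in the joint test at 18 h. The cause of these shifts was not tested.

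Libraries of the same replicate number showed no pairing common to the comparisons (32 correlations of deviations, -0.216 to 0.357, median -0.025, 5 over 0.1). For the OX40 agonist at 36 h they were -0.051, 0.357 and 0.207, and so few libraries per group cannot exclude a pairing. With the number as a replicate block 58, 66 and 34 members passed in the comparisons without agonist and 31, 26, 26 and 5 with the agonists at 18 h. Direction changed in 7 single values. Under the GC offset Rplp1 at 18 h over rest became 0.086, Rps4x at 36 h -0.08 and Rps3a1 at 36 h -0.073, and with limma on TPM Rps6 at 18 h became -0.075, and at 36 h Rps4x -0.028, Rps3a1 -0.078 and Rplp1 -0.115. Depth limits the rarest members, Rpl39l, Rps3a2, Rps3a3 and Rps4l, which stayed below 5 CPM.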
